A study of Mus musculus with 2 samples.

Results

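The serotonin receptor genes described here are Htr1a, Htr1b, Htr1d, Htr1f, Htr2a, Htr2c, Htr3a, Htr4, Htr5a and Htr7. These are 10 of the 55536 genes measured and 10 of the 14 mouse genes of the family. They were chosen by gene symbol, with earlier results of these data known. They were followed in total RNA from hippocampus tissue (a layer of the hippocampus per the labels) of male B6CASTF1/J mice, the F1 hybrids of C57BL/6J and CAST/EiJ, at 2 months of age. The 2 libraries, replicate 1 and replicate 2, were each made from 300 ng of RNA with ERCC spike-ins and form 1 group, so levels were described and no treatment or genotype was compared. The replicate numbers are biological replicate numbers, but the donor label is the same for both, so the spread between them may be less than that between animals. Levels are in TPM, an abundance scaled by transcript length and to a fixed total in which genes can be set beside each other, and a gene was called detected at 1 TPM or more in both libraries.

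Serotonin reaches the hippocampus in axons from the raphe nuclei of the brain stem, so its receptors are made in the tissue while the cells that make the transmitter lie elsewhere. Most serotonin receptors couple to G proteins: the 5-HT1 and 5-HT5 types to inhibitory Gi/o, the 5-HT2 type to Gq/11 and phospholipase C, and the 5-HT4, 5-HT6 and 5-HT7 types to Gs and cyclic AMP. The 5-HT3 type is a cation channel opened by serotonin. Several of these genes are also known for alternative splicing that changes the receptor's tail or cuts the reading frame, and the 5-HT2C messenger is known for A-to-I editing of its coding sequence.

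Of the 10 receptor genes, 9 were detected, where 57.7% of the 22015 nuclear protein-coding genes were. Over all 14 mouse genes of the family, 11 were detected. Htr1a was the highest at 15.9 ± 0.403 TPM (mean ± SD, n = 2), followed by Htr4 at 9.96 ± 1.17 TPM, Htr2c at 7.19 ± 0.0424 TPM and Htr3a at 5.36 ± 0.467 TPM. Htr1d, at 0.20 ± 0.0566 TPM, was the gene of these 10 that was not detected. The splice forms of Htr2c, Htr3a and Htr7 differed in what they encode, and 55.6% of the Htr7 TPM in each library was assigned to transcripts annotated for nonsense-mediated decay.

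The sequences below are the stretches that tell those splice forms apart, printed 5′ to 3′ on the coding strand from the GENCODE M21 transcript sequences on mm10. In Htr2c, a 95-base segment at the end of an exon (chrX:147169676-147169770, plus strand) is kept in Htr2c-201, the transcript of the full receptor of 459 codons. Capitals mark the 3 codons that A-to-I editing is known to recode, in the region of the second intracellular loop, which begin 10 bases into the segment. Htr2c-207 splices before this segment and so lacks the edited codons. Its junction is shown as 15 bases of the shortened exon (chrX:147169661-147169675) followed by the next exon (chrX:147193769-147193829), with capitals at the first in-frame stop, which leaves 19 codons after the junction and 172 in all.
Htr2c-201 segment: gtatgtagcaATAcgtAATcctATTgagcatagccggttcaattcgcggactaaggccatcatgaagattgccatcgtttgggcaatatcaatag
Htr2c-207 junction: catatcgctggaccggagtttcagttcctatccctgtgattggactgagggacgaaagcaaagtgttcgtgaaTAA

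In Htr3a the last exon has 2 acceptor sites. Capitals mark the 18 bases, or 6 codons, present only in Htr3a-201 (chr9:48900561-48900575 joined to chr9:48899976-48900008, minus strand) and missing from Htr3a-202 (chr9:48900561-48900575 joined to chr9:48899976-48899990). The codons lie in the large intracellular loop of the channel subunit and keep the reading frame.
Htr3a-201: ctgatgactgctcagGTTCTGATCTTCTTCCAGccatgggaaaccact
Htr3a-202: ctgatgactgctcagccatgggaaaccact

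In Htr7, Htr7-204 carries a 58-base exon (chr19:36041555-36041612, minus strand) that Htr7-202 lacks. Capitals mark its first in-frame stop, 9 bases before the next exon junction and 765 bases before the last one. The other 3 lines show where the coding tails of Htr7 part, each from 15 shared bases (chr19:35969309-35969323), with capitals from the first base that is not shared through the stop codon. Htr7-202 goes on into its last exon (chr19:35960357-35960399). Htr7-205 uses a splice site that adds 5 bases and meets a stop within them (chr19:35969305-35969323 in all). Htr7-201 reads a 97-base exon (chr19:35964381-35964477) and then 12 bases of the last exon (chr19:35960388-35960399).
Htr7-204 exon: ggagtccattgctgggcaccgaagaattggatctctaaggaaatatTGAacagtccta
Htr7-202 tail: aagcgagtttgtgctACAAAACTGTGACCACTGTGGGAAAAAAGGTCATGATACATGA
Htr7-205 tail: aagcgagtttgtgctGTAA
Htr7-201 tail: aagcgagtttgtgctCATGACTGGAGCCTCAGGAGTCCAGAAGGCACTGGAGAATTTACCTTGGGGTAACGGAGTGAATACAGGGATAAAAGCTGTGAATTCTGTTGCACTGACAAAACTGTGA

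The total expected count, the estimated number of reads assigned, was 31422827 in replicate 1 and 31303010 in replicate 2. The marker genes of the tissue were present, with 4 of 4 dentate granule genes, 3 of 3 CA1 genes, 3 of 3 CA3 genes, 3 of 3 interneuron genes and 4 of 4 microglia genes detected. The tissue is a mixture of cells, so fewer cells of a type and less RNA per cell cannot be told apart in any level below. Among the 10 receptor genes, 9 reached an expected count of 50 in each library.

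The Gi/o-coupled genes held both the highest and the lowest level of the set. Htr1a (chr13:105443639-105448122, plus strand, a single exon) encodes the 5-HT1A receptor, known as an autoreceptor in the raphe and as a postsynaptic receptor on hippocampal pyramidal and granule cells. It had 16.2 TPM in replicate 1 and 15.6 TPM in replicate 2, from expected counts of 1595 and 1581. Both values lay above those of every other receptor gene, and the mean of Htr1a was 1.60 times that of Htr4. It stood at percentile 72.7 of the nuclear protein-coding genes by mean TPM.

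Htr1b (chr9:81628291-81633828, minus strand) encodes the 5-HT1B receptor, known to restrain transmitter release from axon terminals. It had 3.86 and 3.60 TPM in replicates 1 and 2, with expected counts of 334 and 321. D430036J16Rik, annotated on the opposite strand over Htr1b, had 1.38 and 1.94 TPM, with 40 and 52 counts. Of the 31-base words of the Htr1b transcripts, 18.2% also occurred in other genes, most often in D430036J16Rik. The strand setting of the counting is not given in the sources used here, so reads in the shared stretch are of uncertain origin. For the other 9 receptor genes the share of such words was between 0% and 0.281%.

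Htr5a (chr5:27842149-27855088, plus strand), the 5-HT5A receptor, had 3.28 and 3.07 TPM from 389 and 374 counts. Htr1f (chr16:64924729-65105854, minus strand), the 5-HT1F receptor, had 2.21 and 1.83 TPM from 123 and 105 counts. Htr1f was the lowest detected gene of the set, and neither of its values reached those of Htr5a. Htr1d (chr4:136423524-136444398, plus strand), the 5-HT1D receptor, had 0.16 and 0.24 TPM. Its expected counts of 7 and 6 have exact 95% Poisson intervals of 2.81 to 14.4 and 2.20 to 13.1, so its level and its transcripts are poorly fixed at this depth. Such intervals cover counting error only.

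Of the Gq/11-coupled genes, Htr2c (chrX:146962513-147197277, plus strand) was the higher. It encodes the 5-HT2C receptor, which is abundant in the choroid plexus as well as in neurons. It had 7.16 and 7.22 TPM in replicates 1 and 2, with 684 and 661 counts. Htr2a (chr14:74640840-74709494, plus strand), the 5-HT2A receptor of cortical and hippocampal neurons, had 3.78 and 3.94 TPM from 468 and 501 counts, below Htr2c in both libraries.

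Choroid plexus markers were read beside Htr2c. Of 10, 3 were detected, Ttr, Enpp2 and Kl, and the list summed to 55.3 TPM in replicate 1 and 74.5 TPM in replicate 2. Ttr was at 10.6 and 23.1 TPM. Among the markers not detected, Kcne2 was at 0 and 0.03 TPM, Clic6 at 0.28 and 0.57 TPM and Otx2 at 0.13 and 0.62 TPM. Of the markers with a ratio between the libraries, 6 were higher in replicate 2 and 3 in replicate 1. Enpp2, at 39.4 and 45.3 TPM, made up most of the sum, and Kl was at 4.04 and 3.96 TPM. For the 3 detected markers, expected counts per library total were set as ratios of replicate 1 over replicate 2. These were 0.45 for Ttr, 0.91 for Enpp2 and 0.99 for Kl. The log2 ratio of Htr2c between the libraries was -0.01 here and 0.18 in the second quantification. How much of the marker sum, or of the Htr2c level, is choroid plexus RNA was not tested.

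The Gs-coupled genes were Htr4 and Htr7. Htr4 (chr18:62324204-62496577, plus strand), the 5-HT4 receptor, had 10.8 TPM in replicate 1 and 9.13 TPM in replicate 2, from 595 and 502 counts. Both values were above those of Htr2c and below those of Htr1a. Htr7 (chr19:35958734-36057507, minus strand), the 5-HT7 receptor, had 3.48 and 3.88 TPM from 220 and 244 counts.

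The channel gene Htr3a (chr9:48899213-48911099, minus strand) encodes the subunit that the 5-HT3 channel requires and that marks a class of interneurons. It had 5.69 and 5.03 TPM from 243 and 221 counts. Its antisense neighbour Gm32335 had 0 and 2 counts, and 13.4 and 19.8 counts in the second quantification. The list of genes of interneurons that carry 5-HT3A channels, among them Vip, Npy and Reln, was detected in full, 7 of 7, and summed to 462 TPM in replicate 1 and 480 TPM in replicate 2. Vip was at 7.14 and 6.87 TPM, while Cck, at 271 and 295 TPM, made up most of the sum. Some genes of the list, such as Cck, are also expressed by other hippocampal neurons. Htr3b, the partner subunit of Htr3a, was listed at 0 counts in each library, which leaves room for as many as 3, while the second quantification gave it 5.53 and 1.00 counts.

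**Figure D1:**
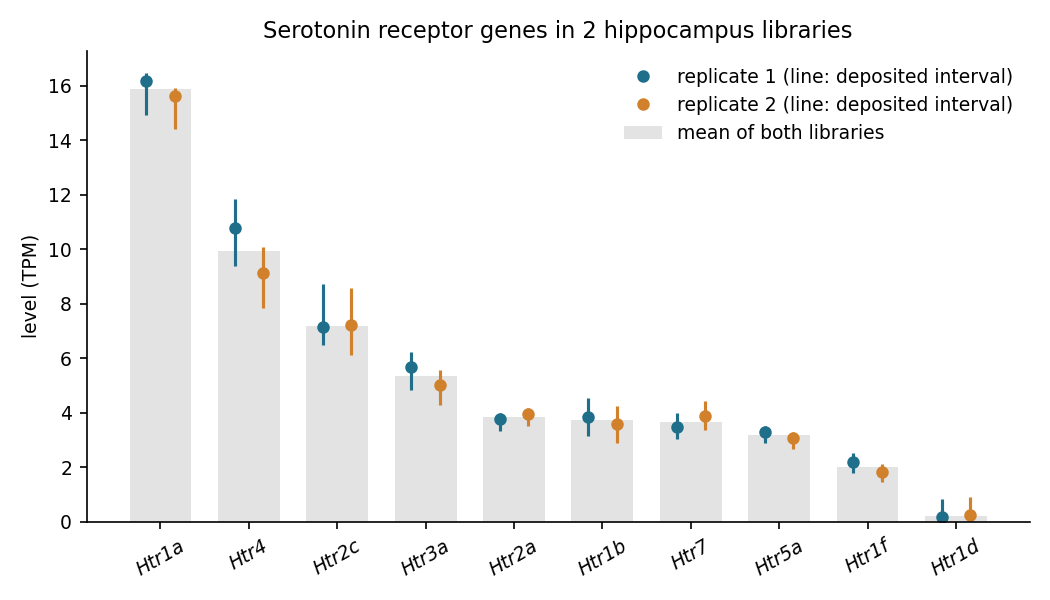
Level of each receptor gene in TPM (vertical axis), with points for replicate 1 and replicate 2, bars for their mean and lines for the interval of TPM that the authors deposited for each library. Htr1a sits at 16.2 and 15.6 TPM above all others, Htr4 at 10.8 and 9.13 TPM comes next, and the points of Htr2a, Htr1b and Htr7 interleave between 3.48 and 3.94 TPM.

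Ordered by mean TPM, the genes ran Htr1a, Htr4, Htr2c, Htr3a, Htr2a, Htr1b, Htr7, Htr5a, Htr1f and Htr1d. In 7 of the 9 neighbouring pairs, both values of the higher gene lay above both values of the lower. The exceptions were Htr2a with Htr1b and Htr1b with Htr7, whose means differed by 1.03 times and 1.01 times. The highest detected gene was 7.87 times the lowest detected one. The median over the 10 receptor genes, with the undetected Htr1d counted in, was 3.80 TPM. Over the nuclear protein-coding genes it was 14.7 TPM, with undetected genes left out. Taking in the other 4 receptor genes of the mouse, Htr5b was at 3.88 and 4.22 TPM and Htr6, another Gs-coupled receptor, at 3.10 and 2.91 TPM, close to the levels of Htr7 and Htr5a. Htr2b was at 0.04 and 0.02 TPM, so 11 of the 14 genes of the family were detected.

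By coupling, the Gi/o genes held 45.4% of the summed receptor TPM in replicate 1 and 45.5% in replicate 2, of which Htr1a alone was 28.6% and 29.2% of the whole sum. The Gs genes Htr4 and Htr7 held 25.2% and 24.3%. The Gq/11 genes Htr2a and Htr2c held 19.3% and 20.8%. Htr3a, the only channel gene of the set, held 10.1% and 9.39%. The order of the 4 classes was the same in both libraries, and the whole sum was 56.6 TPM in replicate 1 and 53.6 TPM in replicate 2. The sums cover the 10 genes only and leave out Htr2b, Htr3b, Htr5b and Htr6. Those 4 genes together had 7.02 TPM in replicate 1 and 7.15 TPM in replicate 2. The class values are shares of messenger RNA and not of receptor protein.

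No receptor gene with at least 50 counts in both was 2-fold apart in TPM, as was true of all but 0.273% of the 13916 genes that pass this minimum. Of these 9 receptor genes, 6 were higher in replicate 1, where 62.6% of the 13916 genes were. Their median log2 ratio of replicate 1 over replicate 2 was 0.10, beside a median of 0.04 over all these genes. Htr4 had a log2 ratio of 0.24, Htr1f of 0.27 and Htr3a of 0.18, while Htr7 had -0.16. The count ratio of Htr4 was 1.18, with an exact 95% binomial interval of 1.05 to 1.33, the only one among the 9 to leave out 1. An interval that leaves out 1 was found for 20.3% of the 13916 genes, so 1 of 9 is not more than is common in these libraries. The log2 ratio of Htr2c was -0.01 in TPM and 0.04 in TMM-scaled counts. Its count ratio per library total was 1.03, so the sign differed between TPM and counts also without TMM factors.

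**Figure D2:**
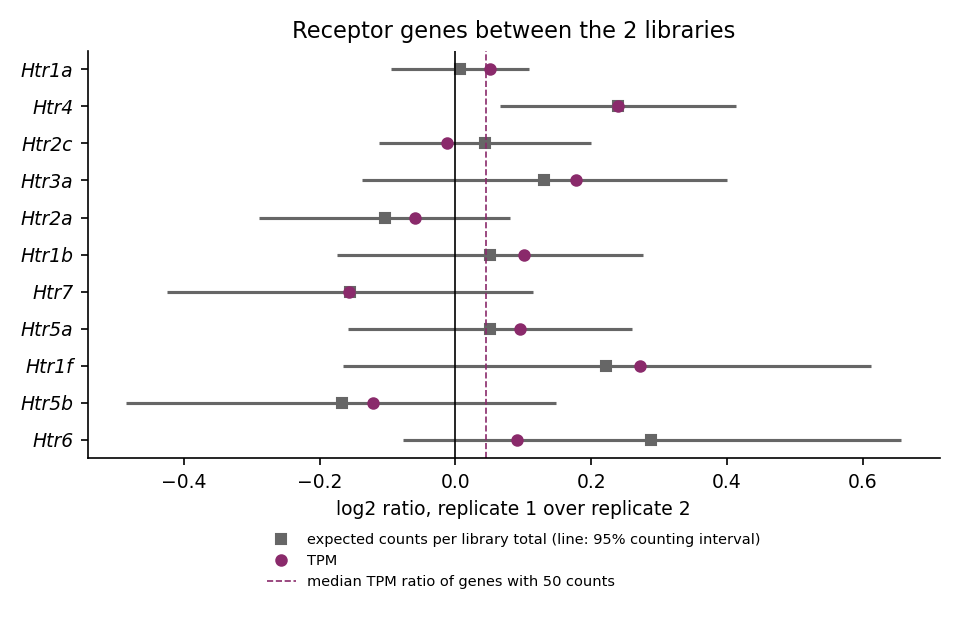
Log2 ratio of replicate 1 over replicate 2 (horizontal axis) for the receptor genes with at least 50 counts in both libraries, with Htr5b and Htr6 at the foot. Circles are TPM ratios, squares are ratios of expected counts per library total with their 95% counting intervals, and the dashed line is the median of all such genes, at 0.04; the interval of Htr4 alone does not reach 0.

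The second quantification, made directly from the reads, gave higher TPM for the detected receptor genes, with Htr1a at 25.6 and 24.7 TPM, Htr4 at 17.0 and 15.1 TPM and Htr2c at 10.7 and 9.41 TPM. Nuclear protein-coding genes took 42.1% and 41.2% of all TPM in the first quantification and 74.2% and 74.4% in the second, so levels were compared as parts of the nuclear protein-coding sum of TPM. On that scale, log2 ratios of first over second ran from -0.31 for Htr1d to 0.45 for Htr1f, and Htr2c, at 0.35, was the next highest. Htr1a, Htr1b, Htr2a, Htr3a, Htr4, Htr5a and Htr7 had 0.10 to 0.17. The median over detected nuclear protein-coding genes was 0.08, so a ratio somewhat above 0 is not particular to the receptor genes. The order of the 10 genes was the same but for Htr1b, which took the place above Htr2a.

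**Figure D3:**
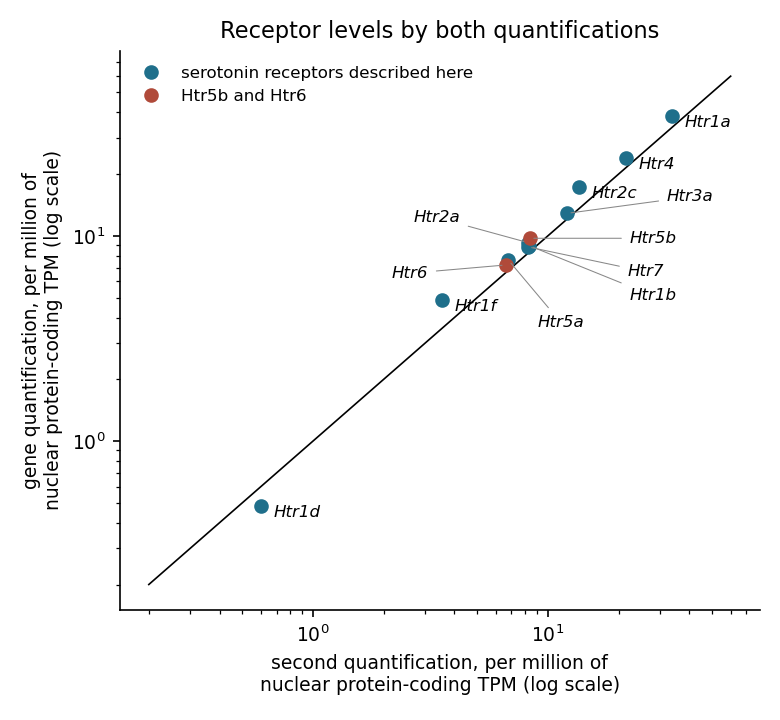
Mean level of each receptor gene in the first, alignment-based gene quantification (vertical axis) against the second quantification (horizontal axis), both scaled so that nuclear protein-coding genes sum to the TPM total, on log scales. The line marks equal values; Htr1f and Htr2c lie farthest above it, at log2 ratios of 0.45 and 0.35, and Htr1d lies below it at -0.31.

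The annotation gives the 10 genes 29 transcripts. Htr1a, Htr1f, Htr2a and Htr5a have 1 each, and the other 6 have several. The most abundant transcript by TPM was the same in both libraries for 4 of those 6 in the first quantification, Htr1b, Htr2c, Htr3a and Htr4, beside 88.8% of 11502 detected nuclear protein-coding genes with several transcripts. It was the same in both libraries and both quantifications for 3 of the 6, Htr1b, Htr2c and Htr3a, beside 66% of those genes. Htr1d, 1 of the 6, lies below the detection threshold that these percentages apply to, and with 7 and 6 counts its leading transcript changed between the libraries. Htr1d-201, which encodes the receptor, held 68.8% and 33.3%, and the short non-coding Htr1d-204 held the rest.

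Htr2c was led by Htr2c-201, the full receptor with the edited codons. Its share of Htr2c TPM was 77.1% in replicate 1 and 69.9% in replicate 2, with 577 and 543 counts. Htr2c-207, which splices past the edited codons, held 9.21% and 11.5%, with 68.1 and 87.8 counts, and the second quantification gave it 6.16% and 7.79%. The truncated form was thus listed in each library by each quantification, at a share well below that of Htr2c-201. The annotation tags Htr2c-207 as not organism supported. Htr2c-205, a short non-coding transcript, held 6.56% and 14.96% in the first quantification from only 5.77 and 13.7 counts, and 0% in the second. Editing itself was not measured here, since the quantifications hold no base calls.

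Htr3a was led by Htr3a-202, the form of 483 codons without the 6 extra codons. Its share was 88.6% and 85.5% in the first quantification, against 11.4% and 14.5% for Htr3a-201, the form of 489 codons. The second quantification gave Htr3a-202 75.0% and 92.9%, so the same form led throughout while its share moved by more between the libraries. Both Htr1b transcripts encode the same 386 codons and differ outside them. Htr1b-202 held 77.5% and 77.8% of Htr1b TPM in the first quantification and 74.4% and 70.3% in the second.

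Htr7, like Htr4 and Htr1d, did not keep 1 leading transcript throughout. Htr7-204, which carries the exon with the early stop and ends after 198 codons, held 51.6% and 35.1% of Htr7 TPM, with 123 and 95.5 counts. Htr7-202, the receptor form of 448 codons, held 34.1% and 35.4%, with 79.4 and 93.7 counts. The leading transcript was therefore Htr7-204 in replicate 1 and, by a narrow margin, Htr7-202 in replicate 2. Transcripts annotated for nonsense-mediated decay, the pathway that removes messengers with an early stop, summed to 55.6% in each library. The second quantification put that sum at 68.8% and 74.4%, with Htr7-204 at 48.5% and 45.9%.

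Among the 6 genes with several transcripts, Htr7 was the only one with any transcript annotated for nonsense-mediated decay. None of the others could therefore be led by one. A lead by such a transcript in at least 1 library of the first quantification was found for 2.86% of the 11502 genes. That percentage counts all of these genes, whether or not they have such a transcript annotated. Htr7-206, another such transcript and tagged as not organism supported, held 4.01% and 20.4% in the first quantification and 19.5% and 28.5% in the second. The shares of the coding tails also differed between quantifications. Htr7-202 fell to 14.3% and 0.085% in the second quantification, where Htr7-205, of 435 codons, held 8.75% and 22.9%, beside 0% and 5.94% in the first. Htr7-201, of 470 codons, held 10.3% and 3.10% in the first. The whole gene had 220 and 244 counts. The split between its tails is uncertain, while Htr7-204 held at least 35.1% in each library by each quantification.

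**Figure D4:**
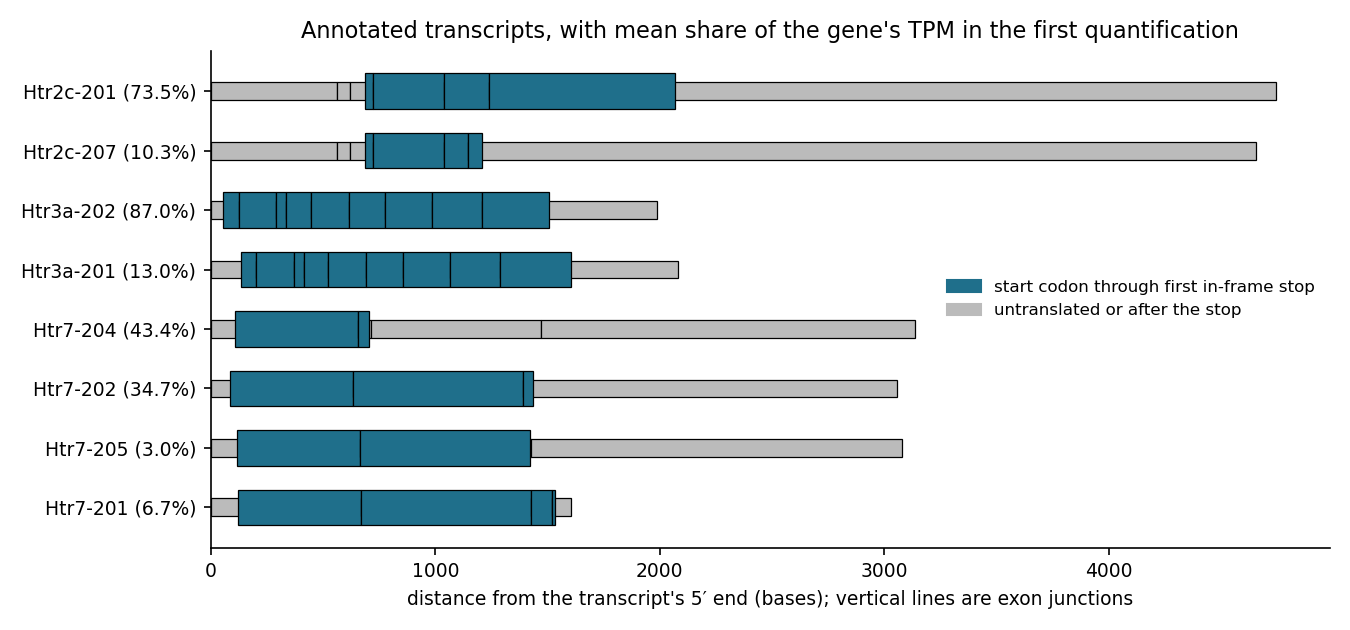
Annotated transcripts of Htr2c, Htr3a and Htr7 drawn to scale along the transcript in bases, with exon junctions as vertical lines, and the mean share of each in its gene's TPM in the first quantification. The coding span (wide, blue) of Htr2c-207 stops at 172 codons beside 459 in Htr2c-201, and that of Htr7-204 stops at 198 codons, 765 bases before its last junction.

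The 4 Htr4 transcripts encode 388, 387, 363 and 377 codons in the order Htr4-201, Htr4-204, Htr4-202 and Htr4-203, and splice forms of this receptor are known to differ in the tail. Htr4-204 led in the first quantification, with 60.8% and 45.1% of Htr4 TPM, and Htr4-201 had 39.1% and 36.4%. In the second quantification Htr4-201 led, with 40.9% and 38.9%, and Htr4-204 held 31.6% and 26.3%. Htr4-201 is 4661 bases long and Htr4-204 is 1203, so by counts Htr4-201 was ahead in both libraries of the first quantification, with 432 and 350 counts, while Htr4-204 had 163 and 105. Htr4-202 held 0% and 12.9% in the first quantification and 10.01% and 25.6% in the second, and Htr4-203 held 0.186% and 5.59% in the first and 17.5% and 9.21% in the second. Which Htr4 form leads thus depended on the quantification.

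**Figure D5:**
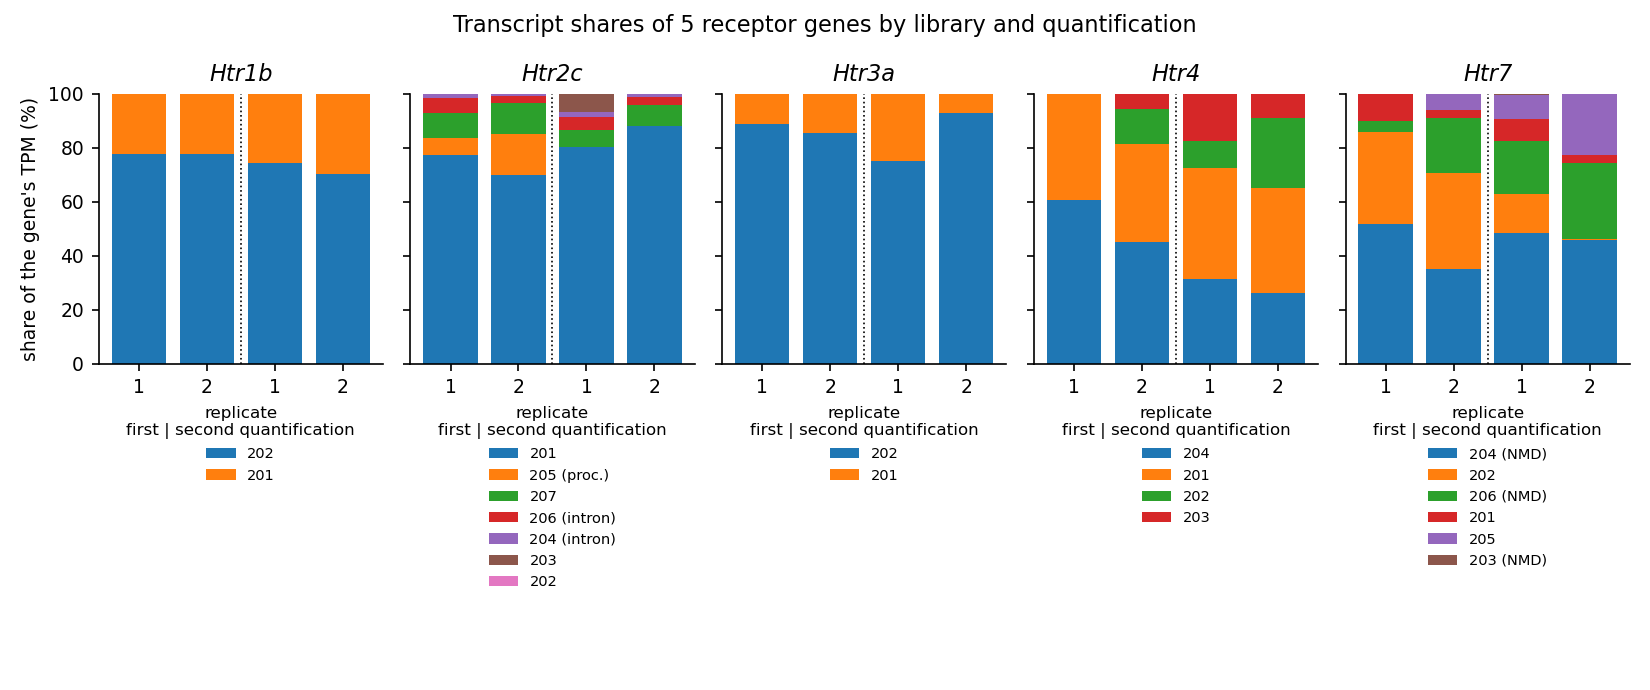
Share of each transcript in its gene's TPM, in percent, for 5 receptor genes. In each panel the bars left of the dotted line are replicates 1 and 2 in the first quantification and those right of it are the same libraries in the second, and NMD, intron and proc. mark transcripts annotated for nonsense-mediated decay, with a retained intron and as processed transcripts; Htr1b, Htr2c and Htr3a keep 1 leading transcript in all 4 bars, while Htr4 and Htr7 do not.

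Genes that make, move and break down serotonin were read beside the receptors. Of 9, 3 were detected: Maoa at 7.06 and 6.67 TPM and Maob at 7.90 and 7.35 TPM, the monoamine oxidases, and Ddc, the decarboxylase that makes serotonin and dopamine, at 3.63 and 2.13 TPM. The enzyme of neuronal serotonin synthesis, Tph2, was at 0.23 and 0.46 TPM, from 13 and 27 counts, and the serotonin transporter Slc6a4 at 0.03 and 0.08 TPM. Tph1, Gch1, Slc18a2 and Fev had between 0 and 0.58 TPM. None of the 4 raphe neuron markers, which include Tph2 and Slc6a4, was detected, and together they summed to 0.73 and 1.07 TPM. The receptor genes summed to 56.6 and 53.6 TPM in the same libraries.

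Of 10 genes listed as possible partners and modifiers of serotonin receptors, 9 were detected. The editing enzymes Adar and Adarb1, which act on the Htr2c codons shown above, had 54.0 and 46.0 TPM and 44.7 and 41.7 TPM in replicates 1 and 2. Ric3, a chaperone of 5-HT3 and nicotinic channels, had 28.4 and 27.9 TPM. S100a10, which binds 5-HT1B and 5-HT4 receptors, had 7.60 and 7.77 TPM, close to the level of Htr2c. Adarb2, Pals1, Arrb1 and Arrb2 lay between 12.9 and 60.3 TPM in these libraries. Gpr50 was the gene of this list that was not detected, at 0.04 and 0.01 TPM, and its place as a partner was not tested.

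Among 22 receptor genes for noradrenaline, dopamine, histamine and acetylcholine, 17 were detected. Those nearest in mean TPM, over the 2 libraries, were Hrh3 and Chrm3 to Htr1a, at 18.6 and 20.1 TPM. Adra2c and Chrm4 were nearest to Htr4, at 10.3 and 8.81 TPM, and Drd5 and Adra1a to Htr2c, at 7.20 and 6.80 TPM. This likeness is one of level alone.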

How the data were processed

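Total RNA-seq libraries of mouse hippocampus, 2 in 1 group, were analysed from the authors' tables. The authors deposited expected counts, estimates of the reads belonging to each gene or transcript that can hold fractions, as the file headers name them. They also deposited TPM, in which all entries, spike-ins among them, add up to 1 fixed total. The isoform percent they deposited gives what part of its gene's TPM a transcript has, per the file headers, and the other deposited columns used were lengths and an interval of TPM within a library, of unstated level. Per the file headers, the gene tables and the first transcript tables have RSEM's columns and the second transcript tables have kallisto's. Per the deposited text listings, the build was mm10 with GENCODE M21. Program versions and the strand setting were not given in the sources used here. Reads of the CAST/EiJ haplotype were assigned to the C57BL/6J reference, and their loss was not measured.

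Symbols and gene identifiers were joined to GENCODE M21, in which all 55536 identifiers were found. Transcript shares were recomputed from TPM. Gene TPM of the second quantification is the sum over a gene's transcripts. Expected counts were rounded for exact 95% Poisson intervals, for binomial intervals of count ratios and for TMM factors from edgeR 4.0.16 under R 4.3.3. Other steps used Python 3.11.15, pandas 2.3.3, scipy 1.17.1 and matplotlib 3.10.9. The ratio and interval steps were tested on simulated counts that held counting error only. Such a test cannot show how the intervals fare with other spread between libraries. With 1 group no groups were compared, and no p-values were computed. The genes named are the 10 receptor genes, the other receptor genes, the pathway, partner and marker lists, the 2 genes nearest in level to each of the 3 highest receptor genes among 22 related receptors, overlapping genes, and transcripts with a share of at least 10%. Members and lists were chosen with earlier results of these data known. Alternatives changed the detection threshold, the count minimum, the scaling or the quantification, added a pseudocount of 1, or left out 1 library. Promoter and protein sequences were not used here.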

Additional observations from a re-analysis of the deposited data

How the results depend on the processing

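The count of 9 detected receptor genes held at a threshold of 0.5 TPM, with a minimum of 50 counts, in the second quantification, on the nuclear protein-coding scale and with either library left out (9 to 9), and was 8 at 2 TPM. No receptor gene that passed the count minimum was 2-fold apart under the alternatives tried for that count (a minimum of 10, TMM scaling and the second quantification), and the median log2 ratio between libraries lay between 0.05 and 0.10. The median over the receptor genes, 3.80 TPM, was 3.73 TPM with the authors' posterior mean, 6.15 TPM in the second quantification, 9.12 TPM when nuclear protein-coding genes were scaled to the TPM total, and 3.82 to 3.91 TPM with 1 library left out. In the second quantification the coupling classes held 45.5% (Gi/o), 18.6% (Gq/11), 25.5% (Gs) and 10.3% (channel); with 1 library left out they held 45.4% to 45.5%, 19.3% to 20.8%, 24.3% to 25.2% and 9.39% to 10.1%. In each such alternative 8 of the 10 genes kept their place in the order. For each gene with several transcripts, the transcript with the highest mean share in the first quantification was followed, also where another one led. The median of these shares, 63.2%, was 59.8% in the second quantification and 57.5% to 72.9% with 1 library left out. The log2 ratio of Htr1d turned from -0.58 to 0.21 when counts were scaled by TMM factors and to 1.68 in the second quantification, at 7 and 6 counts; the cause was not tested. Depth limits the levels of Htr1d, Htr2b and Htr3b, each at 7 counts or fewer. The shares of Htr4 and Htr7 transcripts differed between quantifications of the same libraries, and the cause was not tested. No paired analysis was possible because there is 1 group of 2 libraries.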

Other observations

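Htr2c hosts the small RNA gene Snora35 and 7 miRNA genes on its own strand. All of these were listed at 0 counts in both libraries and both quantifications, where Htr2c had 684 and 661 counts. They are short, such as Mir1264 at chrX:147010601-147010686, and leave few or no positions for a read to be counted. The 0 counts therefore do not show that these small RNAs are not expressed. In the related receptor list the highest levels were those of Chrm1, the M1 muscarinic receptor, at 77.4 and 74.6 TPM, and Adra1d, an adrenergic receptor, at 40.2 and 39.6 TPM, both above Htr1a. Ddc had a count ratio of replicate 1 over replicate 2 of 1.43, with an exact 95% binomial interval of 1.06 to 1.93, from 112 and 78 counts. Tph2 went the other way, at 0.48 with an interval of 0.23 to 0.96, from 13 and 27 counts. Such intervals cover counting error only, and 20.3% of the 13916 genes with at least 50 counts in both libraries had one that leaves out 1. Dlg4, the postsynaptic scaffold that binds the tails of the 5-HT2A and 5-HT2C receptors, was at 362 and 353 TPM.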
